A study of Mus musculus with 6 samples.

Results

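Mature miRNAs tied to inflammation and to immune cells were followed in small RNA from extracellular vesicles of mouse hepatocytes. mmu-miR-146a-5p, mmu-miR-146b-5p and mmu-miR-155-5p are linked to NF-kB signalling. mmu-miR-142a-3p, mmu-miR-142a-5p, mmu-miR-223-3p and mmu-miR-150-5p mark blood and immune cells and served as a check on carried-over RNA. The species prefix is left out below. They were chosen by name, as 7 of the 1976 mature miRNAs in the table, and all 7 were present. The vesicles, which the labels also call exosomes, came from primary hepatocytes of wild-type C57BL/6J mice. The control group (3 libraries) received palmitic acid at 0 µM and the other group (3 libraries) received 600 µM. Palmitic acid, a saturated fat, makes cultured hepatocytes store lipid. The number of animals or cultures behind each group is not given, and a p-value therefore measures only library-to-library spread, which may be technical. The series is titled for hepatic steatosis and endothelial dysfunction. The comparison made here asks whether inflammation-linked miRNAs in hepatocyte vesicles differed when the cells received palmitic acid.

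NF-kB is a transcription factor that inflammatory signals such as those of toll-like receptors switch on. It raises transcription of the genes of miR-146a and miR-155. miR-146a and miR-146b repress the signalling adaptors Traf6 and Irak1 and so feed back on the pathway, whereas miR-155 represses brakes such as Socs1 and Inpp5d (SHIP1) and favours inflammatory responses. miR-142 is made throughout the blood lineages, miR-223 mostly in neutrophils and monocytes, and miR-150 in mature lymphocytes. Hepatocytes make little of these last miRNAs, and the liver's resident macrophages, the Kupffer cells, are the usual neighbours that make miR-142 and miR-223.

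The sequences show which members can be told apart. Of the 7, 6 were found by name in RefSeq's mature miRNA table (GRCm38.p6), and miR-150-5p is named only. Each is written 5′ to 3′ in lower case, with the seed, bases 2 to 8, which pairs with target transcripts, in capitals.
miR-146a-5p: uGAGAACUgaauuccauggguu
miR-146b-5p: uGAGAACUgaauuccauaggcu
miR-155-5p: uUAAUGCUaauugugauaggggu
miR-142a-3p: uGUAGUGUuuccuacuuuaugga
miR-142a-5p: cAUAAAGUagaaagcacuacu
miR-223-3p: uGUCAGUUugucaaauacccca
miR-146a-5p and miR-146b-5p share the seed GAGAACU and 20 of their 22 bases. They differ by the substitutions G18A and U21C, counted from the 5′ end of miR-146a-5p with its base first. A read cut short before these bases matches both, and how such reads were counted is not given in the sources used here, so the separate values of the pair are uncertain. Among the 1677 miRNAs of the table with a sequence in RefSeq, no other carries this seed, and none shares the seed of miR-155-5p, of miR-223-3p or of either miR-142a arm.

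The hairpins lie at separate loci of GRCm38. Mir146, which gives miR-146a, is on chromosome 11, 43374397 to 43374461, minus strand, and overlaps no other gene of GENCODE M21. Mir146b is on chromosome 19, 46342762 to 46342870, plus strand, in an intron of the protein-coding gene Mfsd13a. Mir155 is on chromosome 16, 84714140 to 84714204, plus strand, in an exon of its long non-coding host Mir155hg. Mir142 is on chromosome 11, 87756864 to 87756927, plus strand, in an intron of Mir142hg, and Mir142b occupies the same bases on the minus strand. Mir223 is on chromosome X, 96242817 to 96242926, in an exon of F630028O10Rik, and Mir150 is on chromosome 7, 45121757 to 45121821, with no overlapping gene.

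The table holds log2 values of counts brought to a common library size, from which read numbers were recovered. Controls held 95277 to 657878 reads and palmitic acid libraries 613442 to 799061. The arms of the hepatocyte miRNA miR-122 and of miR-122b took 69.2% to 87.7% of control reads and 11.7% to 15.3% of palmitic acid reads. Shares of all reads are therefore given below, and shares of the remaining reads where stated. The median of the 181 tested miRNAs was higher with palmitic acid by 1.94 on the deposited log2 scale, 1.15 to 2.99 with the other scalings of these values, and 0.59 with voom on recovered reads and totals without miR-122. Of these, 102 changed at a limma adjusted p below 0.05 (56.4%): 76 were higher (42.0%) and 26 lower (14.4%). Of the 76, 33 met the filter through palmitic acid libraries alone, with 0 controls at the minimum, and so could only be higher. Library totals as the scale gave 89 higher (49.2%) and 8 lower (4.42%), and totals without miR-122 gave 57 higher (31.5%) and 41 lower (22.7%), upper-quartile scaling 69 (38.1%) and 37 (20.4%), and centring on the median 65 (35.9%) and 40 (22.1%). Control replicate 1 was the shallowest library and stood apart for several of the members, which are therefore given with and without it.

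miR-146a-5p, the negative regulator of NF-kB signalling, was the most abundant member in 6 of 6 libraries by reads, level with miR-155-5p in palmitic acid replicate 2. It was lower in palmitic acid vesicles on the deposited scale, whereas its read numbers overlapped between the groups. Control replicates 1, 2 and 3 held 130, 157 and 41 reads of it, and the palmitic acid libraries 129, 145 and 92. The groups thus overlapped in reads, with control replicate 3 lowest. As deposited, the controls held log2 values of 8.66, 8.73 and 6.49 and the palmitic acid libraries 6.00, 5.69 and 5.79. All 3 palmitic acid libraries lay below all 3 controls, as they did for 35 of the 181 tested miRNAs (19.3%). Groups that did not overlap in either direction made up 68.0%. miR-146a-5p fell by 2.13 on the log2(adjusted count + 1) scale (SE 0.71, 95% interval -3.78 to -0.49, limma adjusted p = 0.0332). Relative to the median tested miRNA it stood at -4.07. By change it ranked 25 from the lowest of 181.

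The size of the miR-146a-5p difference depended on what it was set against. Expressed as RPM (reads-per-million) of all reads it took 1364, 239 and 162 in controls (95% Clopper-Pearson intervals 1140 to 1620, 203 to 279 and 117 to 220). It took 161, 190 and 150.0 with palmitic acid (135 to 192, 161 to 224 and 121 to 184). Control replicate 1 was far above the rest, and the other 5 libraries lay within 150.0 to 239, so the groups overlapped, whereas they did not for 61.3% of tested miRNAs. The means were 589 ± 673 and 167 ± 20.8 RPM (SD, n = 3 each, exact two-sided permutation p = 0.2, 1 after Benjamini-Hochberg adjustment over 5 members). Of reads other than miR-122 it took 4429, 1944 and 779 RPM in controls against 191, 216 and 172 with palmitic acid. On that scale the groups did not overlap, as for 118 of the 181 tested miRNAs (65.2%), 52 of them lower with palmitic acid (28.7% of the 181). The means were 2384 ± 1864 and 193 ± 21.8 RPM (SD, n = 3 each, exact permutation p = 0.1, the smallest possible with 3 against 3, and 0.5 after adjustment). These intervals, like the limits given below for 0 reads, hold for counting error alone, because PCR copies of a molecule are counted as separate reads.

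With library totals as the scale the limma estimate was -1.17 (SE 0.995, adjusted p = 0.335), and with totals without miR-122 it was -3.29 (SE 0.72, adjusted p = 0.00771). The call also ended without any 1 of control replicates 1 and 2 (adjusted p = 0.0843 and 0.0889) or palmitic acid replicates 1, 2 and 3 (0.0687, 0.0884 and 0.0831), with estimates between -2.22 and -1.75 (adjusted p 0.00273 to 0.443 over all 18 alternatives). Its sign was negative in all 18. In bulk RNA of this kind, fewer vesicles that carry a miRNA and less of it per vesicle cannot be told apart.

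**Figure D1:**
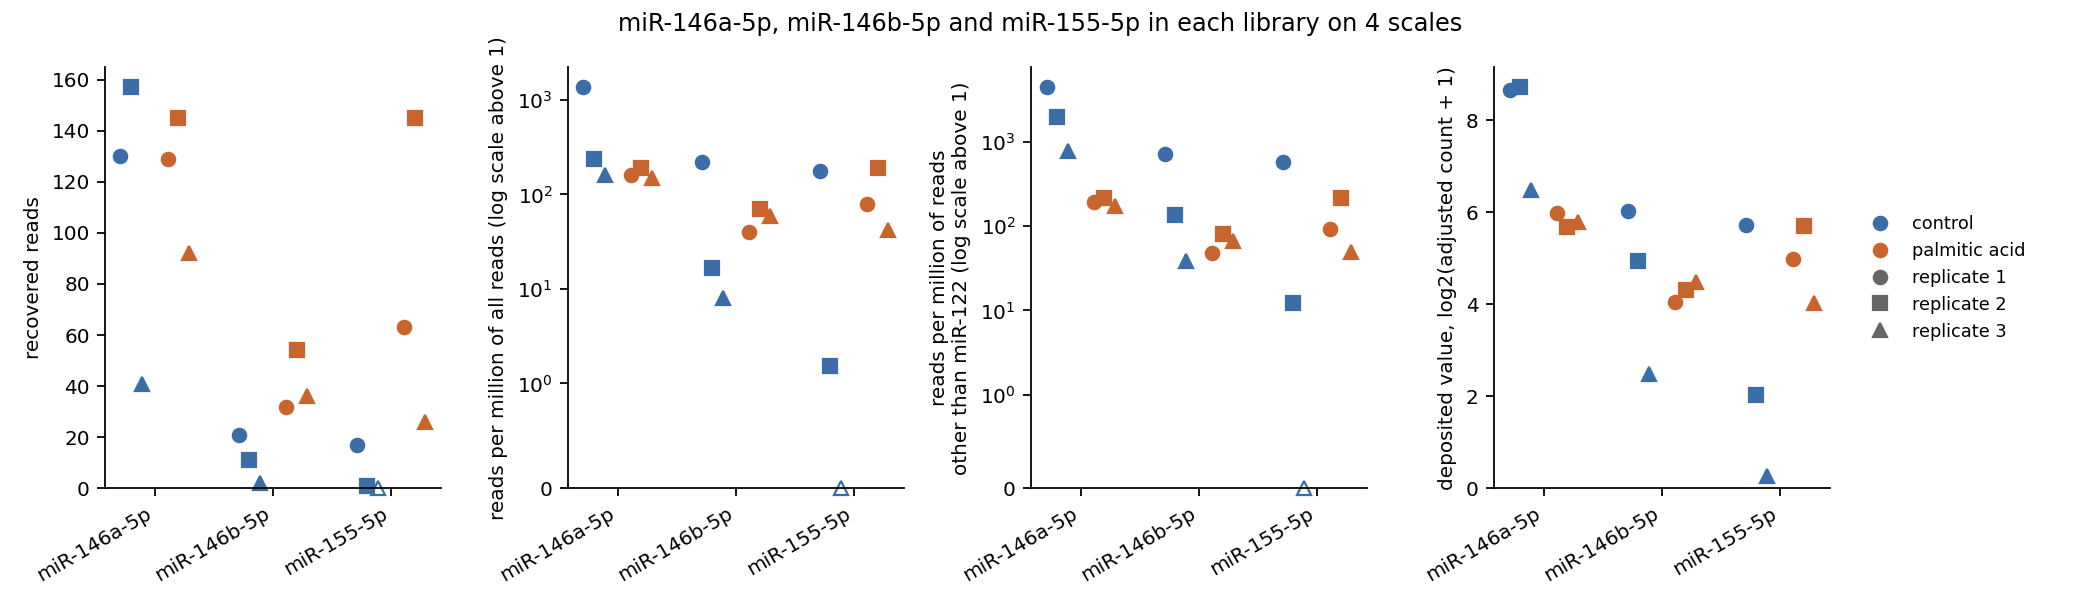
miR-146a-5p, miR-146b-5p and miR-155-5p in each library, as recovered reads, RPM of all reads, RPM of reads other than miR-122, and deposited log2 values. Each point is 1 library, blue for control and orange for palmitic acid, with the replicate number as its shape, and open points are at 0. For miR-146a-5p the groups overlap in the first 2 panels and separate in the last 2, with palmitic acid lower.

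miR-146b-5p, which carries the same seed, did not pass the test in either direction. It had 21, 11 and 2 reads in controls against 32, 54 and 36 with palmitic acid. Every palmitic acid library held more reads than every control, in libraries that were also deeper for miRNAs other than miR-122. The share of all tested miRNAs with that order of reads was not computed. In RPM of all reads the controls stood at 220, 16.7 and 7.92 and the palmitic acid libraries at 40.0, 70.9 and 58.7. Control replicate 1 was again the highest and the other 2 controls were the lowest, so the groups overlapped. Its means were 81.7 ± 120 and 56.5 ± 15.5 RPM (SD, n = 3 each, exact permutation p = 1). Of reads other than miR-122 they were 297 ± 366 and 65.0 ± 16.6 RPM (exact permutation p = 0.4). On the deposited log2 scale the controls stood at 6.02, 4.95 and 2.48 and the palmitic acid libraries at 4.05, 4.30 and 4.48, a difference of -0.21 (SE 1.04, 95% interval -2.61 to 2.20, limma adjusted p = 0.871). The interval allows a difference of more than 2 in either direction on the log2 scale. Without control replicate 1 the estimate was 0.56 (adjusted p = 0.579).

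The ratio of miR-146a-5p to miR-146b-5p within a library does not depend on the library scale. It was 6.19, 14.3 and 20.5 in control replicates 1, 2 and 3 (95% Clopper-Pearson intervals 3.89 to 10.3, 7.76 to 29.2 and 5.32 to 175). With palmitic acid it was 4.03, 2.69 and 2.56 (intervals 2.72 to 6.14, 1.95 to 3.74 and 1.72 to 3.87). Every palmitic acid library had fewer miR-146a-5p reads per miR-146b-5p read than every control, although the counting intervals of control replicates 1 and 3 reached that of palmitic acid replicate 1. The means were 13.7 ± 7.17 and 3.09 ± 0.82 (SD, n = 3 each, exact permutation p = 0.1, the smallest possible, and 0.1 adjusted over the 2 ratios compared). Of the 180 other tested miRNAs, 122 (67.8%) likewise had more reads per miR-146a-5p read in every palmitic acid library than in any control, and 3 (1.67%) had fewer. A rise of miR-146b-5p relative to miR-146a-5p was therefore what most tested miRNAs showed.

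miR-155-5p, which represses brakes on inflammatory signalling, was nearly absent from 2 of the 3 controls and present in 3 of 3 palmitic acid libraries. It had 17, 1 and 0 reads in control replicates 1, 2 and 3 and 63, 145 and 26 reads with palmitic acid. The palmitic acid libraries were above the controls in reads. They were also deeper for miRNAs other than miR-122, with 534267 to 676750 such reads against 29349 to 80766. More miRNAs had any read in them, 484 to 640 against 238 to 243 in controls. The share of all tested miRNAs with more reads in every palmitic acid library was not computed. The controls held deposited log2 values of 5.73, 2.04 and 0.26, and the palmitic acid libraries 4.99, 5.70 and 4.03. Here control replicate 1 lay above all 3 palmitic acid libraries and the other 2 controls below them. The difference of 2.23 did not pass (SE 1.33, 95% interval -0.83 to 5.30, limma adjusted p = 0.176), and it was 0.29 above the median tested miRNA.

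One library decided this outcome. Without control replicate 1 the estimate was 3.76 (SE 0.75, limma adjusted p = 0.00636; 0.00636 to 0.679 over its 18 alternatives), in a fit where 44.0% of 175 miRNAs were higher, and it stood 2.34 above the median of that fit. Neither of those 2 controls reached the filter minimum, so in that fit miR-155-5p was tested only because it was high with palmitic acid, and the call is no independent sign of a rise. They hold 1 read in all, so the size of that estimate depends on the values the adjustment gives to 0 and 1 read. As pooled RPM of all reads the ratio to these controls was 98.0, with a 95% counting interval of 17.4 to 3886. Most control reads were miR-122, so the ratio would be smaller against reads other than miR-122, where it was not computed. In RPM of all reads, miR-155-5p was at 178, 1.52 and 0 in controls and at 78.8, 190 and 42.4 with palmitic acid. The 0 in control replicate 3 allows up to 11.9 RPM (3 reads of its total), which is below each palmitic acid value on this scale. Means were 60.0 ± 103 and 104 ± 77.1 RPM (SD, n = 3 each, exact permutation p = 0.5). Of reads other than miR-122 the order of the means turned, with 197 ± 331 in controls and 119 ± 86.5 with palmitic acid (exact permutation p = 1). Control replicate 1 stood at 579 RPM on that scale. There the 0 in control replicate 3 allows up to 57.0 RPM, which is above palmitic acid replicate 3 at 48.7.

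The ratio of miR-155-5p to miR-146a-5p, chosen after the values were seen, sets the 2 NF-kB-induced miRNAs of opposite action side by side. It was 0.131, 0.00637 and 0 in control replicates 1, 2 and 3, with upper 95% bounds of 0.218, 0.0360 and 0.0941. The palmitic acid libraries stood at 0.488, 1.0 and 0.283, with lower bounds of 0.355, 0.789 and 0.175. The groups did not overlap, and the lowest palmitic acid library and control replicate 1 had counting intervals that met. The means were 0.0457 ± 0.0737 and 0.590 ± 0.369 (SD, n = 3 each, exact permutation p = 0.1, the smallest possible). The direction is the one that 67.8% of the other tested miRNAs had relative to miR-146a-5p.

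**Figure D2:**
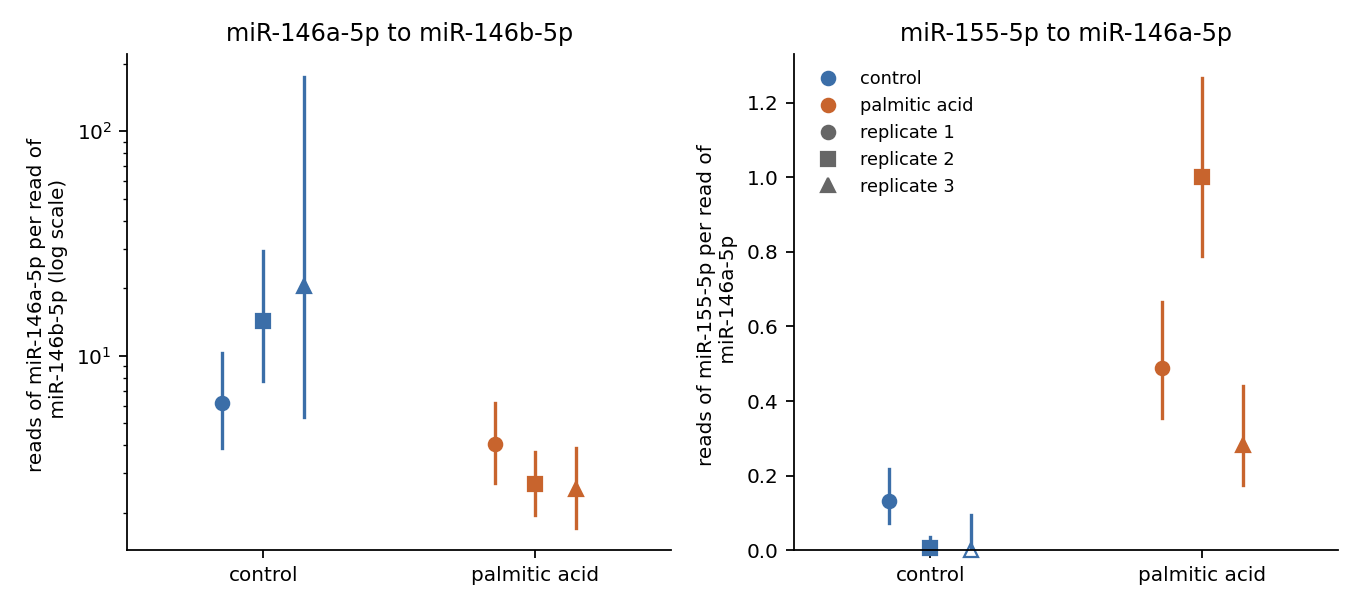
Read ratios within each library, on a log axis for miR-146a-5p to miR-146b-5p and a linear axis for miR-155-5p to miR-146a-5p. Points are libraries and bars are 95% Clopper-Pearson intervals of counting. The palmitic acid libraries lie at 2.56 to 4.03 against 6.19 to 20.5 in controls on the left, and at 0.283 to 1.0 against 0 to 0.131 on the right.

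**Figure D3:**
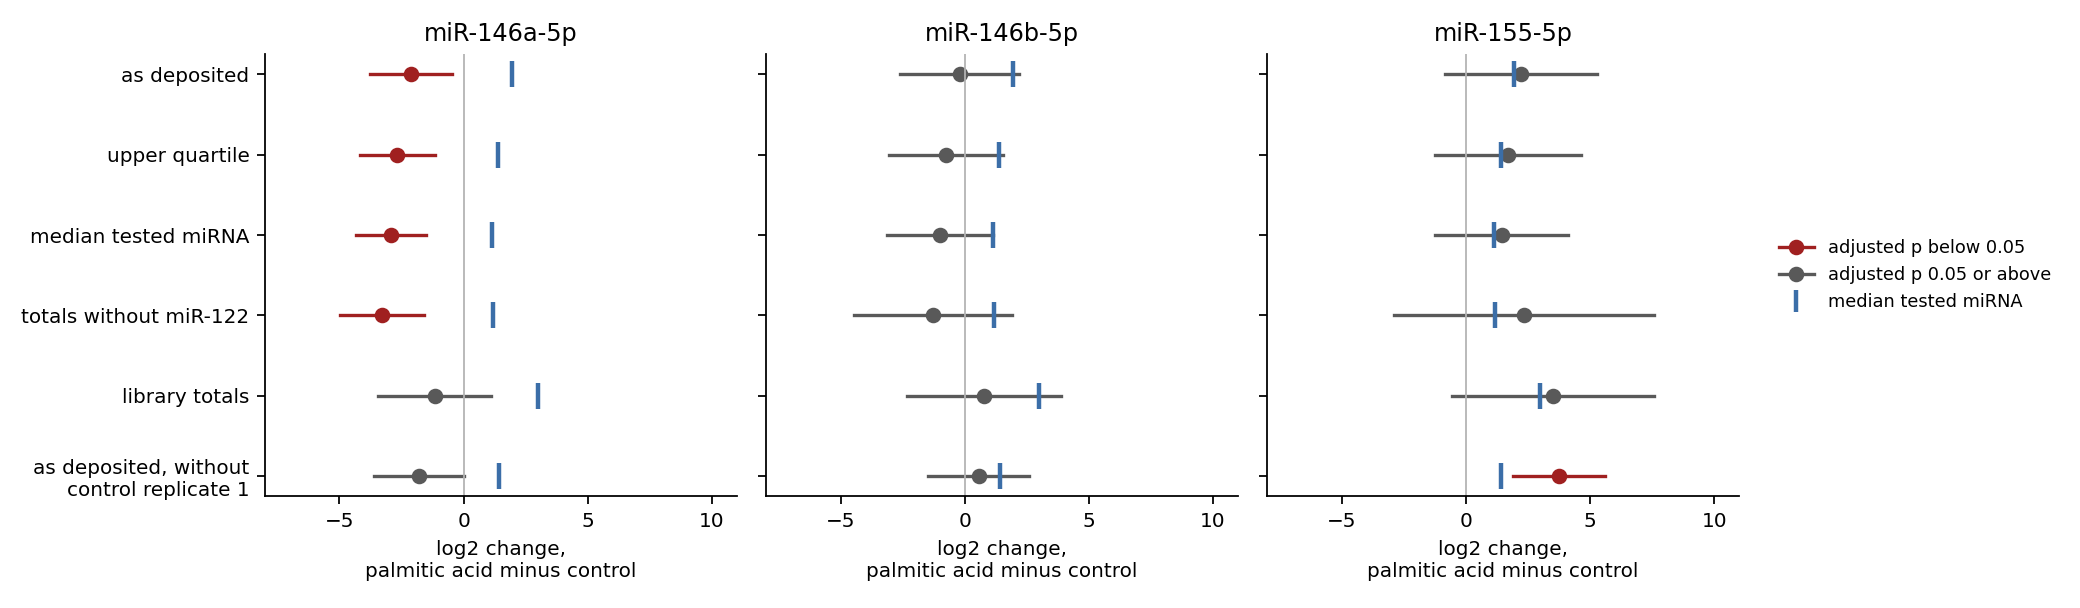
Log2 change of the tested members, palmitic acid minus control, with 95% limma intervals under 5 scalings and without control replicate 1. Red marks an adjusted p below 0.05 and the blue bar marks the median of all tested miRNAs in the same fit. miR-146a-5p lies left of the median in each row, miR-146b-5p spans 0 in each, and miR-155-5p passes only without control replicate 1.

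The immune-cell members were near the limit of detection, and none reached an adjusted count of 10 in 3 libraries, the filter for testing. Thus 3 of the 7 members were tested and 4 were not. miR-142a-3p, usually the more abundant miR-142 arm in leukocytes, had 0, 0 and 4 reads in controls against 1, 6 and 6 with palmitic acid. The single control library with reads stood at 15.8 RPM (interval 4.32 to 40.6). The palmitic acid libraries stood at 1.25, 7.88 and 9.78 RPM, and the 0 reads of control replicates 1 and 2 allow up to 31.5 and 4.56 RPM. A difference was not detectable at this depth (5.28 ± 9.15 against 6.30 ± 4.48 RPM, SD, n = 3 each, exact permutation p = 0.8).

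The other arm, miR-142a-5p, had 7 reads in control replicate 1, 1 read in palmitic acid replicate 1 and 0 in the other 4 libraries. The arms were thus found in different control libraries, and both had a read only in palmitic acid replicate 1. miR-142b, from the opposite strand of the same locus, had 0 reads in all 6. miR-150-5p had 7 reads in control replicate 3 (27.7 RPM, interval 11.2 to 57.1), 2 and 1 in palmitic acid replicates 1 and 2, and 0 elsewhere. miR-223-3p had 6 reads in palmitic acid replicate 2 (7.88 RPM, interval 2.89 to 17.1) and 0 in the other 5. The 0 of 1005526 pooled control reads allows up to 2.98 RPM, against 2.76 in the pooled palmitic acid reads (6 of 2174253), so no fold is given.

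The summed level of these 4 markers ran from 0 to 73.5 RPM in controls (7, 0 and 11 reads) and from 5.01 to 17.1 with palmitic acid (4, 13 and 6 reads). In the wider list of 12 immune and haematopoietic miRNAs, 8 had a read in some library, and its sum ran from 3.04 to 252 RPM in controls and from 58.7 to 219 with palmitic acid. miR-155-5p is on that list and supplied 18 of the 37 control reads and 234 of the 271 palmitic acid reads. miR-146a-5p, at 162 to 1364 RPM in controls and 150.0 to 190 with palmitic acid, lay above the sum of the 4 defining markers in each of the 6 libraries. Of reads other than miR-122 that sum ran from 0 to 239 RPM in controls and from 5.91 to 19.3 with palmitic acid.

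**Figure D4:**
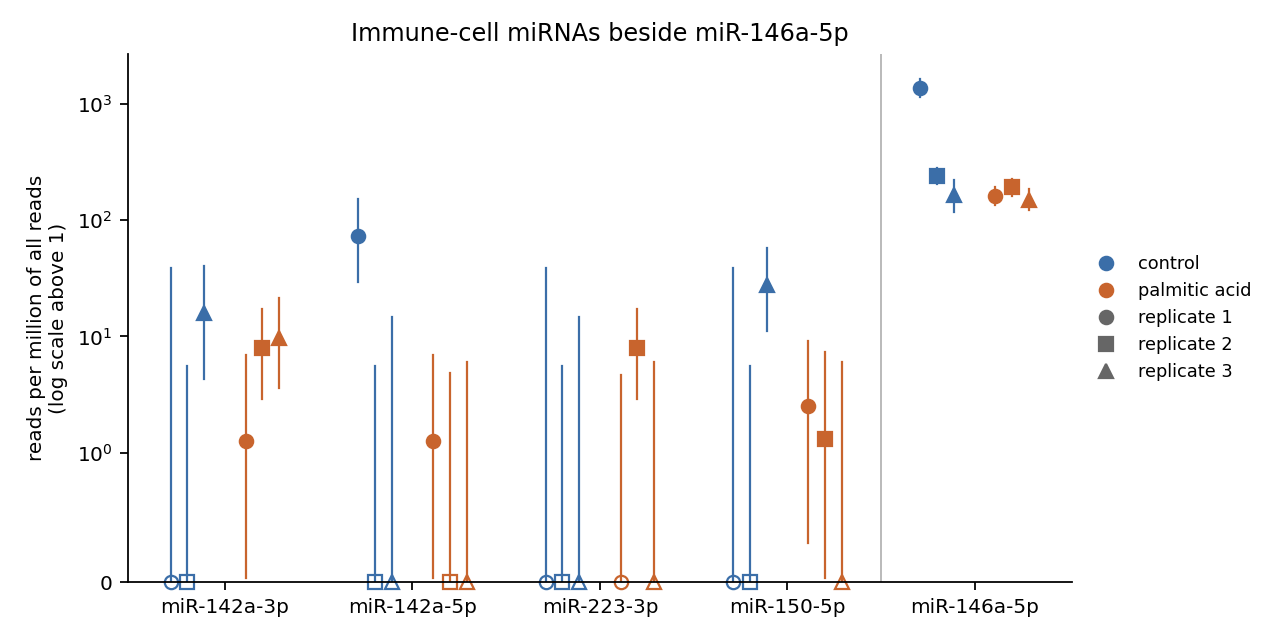
RPM of all reads for the immune-cell miRNAs and, right of the line, miR-146a-5p, on an axis that is logarithmic above 1. Points are libraries, bars are 95% Clopper-Pearson intervals of counting, and open points on the axis are at 0. Of the 24 points for the immune-cell miRNAs 14 are at 0, and the highest is miR-142a-5p in control replicate 1 at 73.5.

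Some markers of other cells, though not all lists, moved with control replicate 1, where the NF-kB-linked members were high. The erythroid and platelet list, led by miR-451a, summed to 6318 RPM there against 39.5 and 345 in the other controls and 29.3 to 167 with palmitic acid. Of its 5 members 4 had reads in some library, 3 of them in control replicate 1. The defining miR-144-3p was at 0 in all 6 libraries. The stellate cell and fibroblast list summed to 2162 RPM in control replicate 1, 157 and 567 in the other controls, and 491 to 638 with palmitic acid. All 5 of its members had reads in some library, 3 of them in control replicate 1. miR-145a-5p and miR-214-3p had 0 reads in every control. The endothelial list did not follow, at 2960 RPM in control replicate 1 within a range of 865 to 3420 in controls and 3743 to 4957 with palmitic acid. Nor did the biliary and other epithelial list, at 1144 RPM there against 385 and 1145 in the other controls. It stood at 5639 to 15161 RPM with palmitic acid, so its groups did not overlap. The same held, in either direction, for 61.3% of single tested miRNAs on that scale. miR-182-5p supplied most of the list's palmitic acid reads (6951, 10949 and 3216). miR-183-5p and miR-96-5p, the latter with 0 control reads, also had more reads in each palmitic acid library than in any control. The palmitic acid libraries were deeper for miRNAs other than miR-122, and the share of tested miRNAs with that order of reads was not computed. The miR-200 family did not share that order of reads. miR-200b-3p had 7, 0 and 31 reads in controls against 13, 10 and 0, and miR-429-3p had 14 reads, all in control replicate 3. miR-200a-3p and miR-200c-3p had at most 10 reads in any library, and miR-141-3p had 1 read, in palmitic acid replicate 1. Of reads other than miR-122, the erythroid, stellate and endothelial lists were lower in every palmitic acid library than in any control. The endothelial list stood there at 4420 to 5617 RPM against 7045 to 16406.5 in controls, the reverse of its order on all reads. The biliary and other epithelial list stayed higher with palmitic acid. Among single tested miRNAs on that scale, 65.2% did not overlap between the groups, and 28.7% did so with palmitic acid lower. The part of the RNAs of these lists in the values of the members was not tested. The hepatocyte marker miR-122-5p had 53784, 488483 and 164860 reads in controls against 100130, 72008 and 65885 with palmitic acid. All 6 hepatocyte markers had reads in every library. Each of the others had more reads in every palmitic acid library than in any control, again in libraries deeper for miRNAs other than miR-122. As deposited, 2 of the 6 were higher, 1 was lower and 3 passed in neither direction. Among all tested miRNAs 42.0% were higher and 14.4% lower.

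By mean RPM of all reads, controls ranked miR-146a-5p (589 ± 673), miR-146b-5p (81.7 ± 120), miR-155-5p (60.0 ± 103), miR-142a-5p (24.5 ± 42.4), miR-150-5p (9.25 ± 16.0), miR-142a-3p (5.28 ± 9.15) and miR-223-3p (0). No neighbours in that order differed by more than their SDs. With palmitic acid the order was miR-146a-5p (167 ± 20.8), miR-155-5p (104 ± 77.1), miR-146b-5p (56.5 ± 15.5), miR-142a-3p (6.30 ± 4.48), miR-223-3p (2.63 ± 4.55), miR-150-5p (1.27 ± 1.25) and miR-142a-5p (0.417 ± 0.723). There the step between miR-146b-5p and miR-142a-3p exceeded the SDs of both. The NF-kB-linked members lay above the immune-cell members in each of the 3 palmitic acid libraries, and also in control replicates 1 and 2. In control replicate 2 this rested on 1 read of miR-155-5p against 0 reads of the immune-cell members. It did not hold in control replicate 3, where miR-155-5p had 0 reads. The mature forms with a sequence are 21 to 23 bases long, so that RPM compare like lengths, although ligation during library preparation can favour some sequences.

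Apart from miR-142a, almost all reads of the members' hairpins came from 1 arm. miR-146a-3p and miR-146b-3p had 1 read each, both in palmitic acid replicate 2. miR-155-3p, miR-150-3p and miR-223-5p had 0 reads in all 6 libraries.

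Other miRNAs linked to NF-kB and inflammation moved in both directions. Of 24 named miRNAs, the members included, 23 had a read and 14 passed the filter. Of these 14, 5 were higher, 3 lower and 6 passed in neither direction, beside 42.0% higher and 14.4% lower among all tested miRNAs. Their median change was 1.68, against 1.94 for all tested. miR-21a-5p, raised in many inflamed tissues, was the most abundant of them and rose by 3.89 (SE 0.47, limma adjusted p = 2.4e-04). let-7i-5p, which targets the transcript of the receptor TLR4, rose by 3.92 (SE 0.60, adjusted p = 9.0e-04). miR-125a-5p fell by 2.56 (SE 0.88, adjusted p = 0.0374), and miR-221-3p stood at 2.60 (SE 0.98, adjusted p = 0.0519). The other rises, named after their values were seen, were miR-16-5p (2.76), miR-31-5p (5.19) and miR-187-3p (4.22), and the other fall beside miR-146a-5p was miR-125b-5p (-3.04).

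miR-31-5p (2, 0 and 0 control reads) and miR-187-3p (0 in each) had 0 controls at the filter minimum, so both could pass it only by being higher, and their place among the 5 is no sign of a rise beyond that. For miR-31-5p the ratio of pooled RPM of all reads was 131, with a 95% counting interval of 36.1 to 1085. Against reads other than miR-122 it would be smaller. For miR-187-3p, with the control group set to its limit of 3 reads in all, the mean adjusted count was at least 8.89-fold higher. That bound holds for adjusted counts only, and with it the median of the 14 stayed at 1.68. With library totals as the scale 6 of the 14 were higher and 0 lower. Totals without miR-122 gave 4 higher and 3 lower, as did upper-quartile scaling and centring on the median. Several of the miRNAs on this list are made by hepatocytes and by many other cells, and the list was drawn up with results of these data known.

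**Figure D5:**
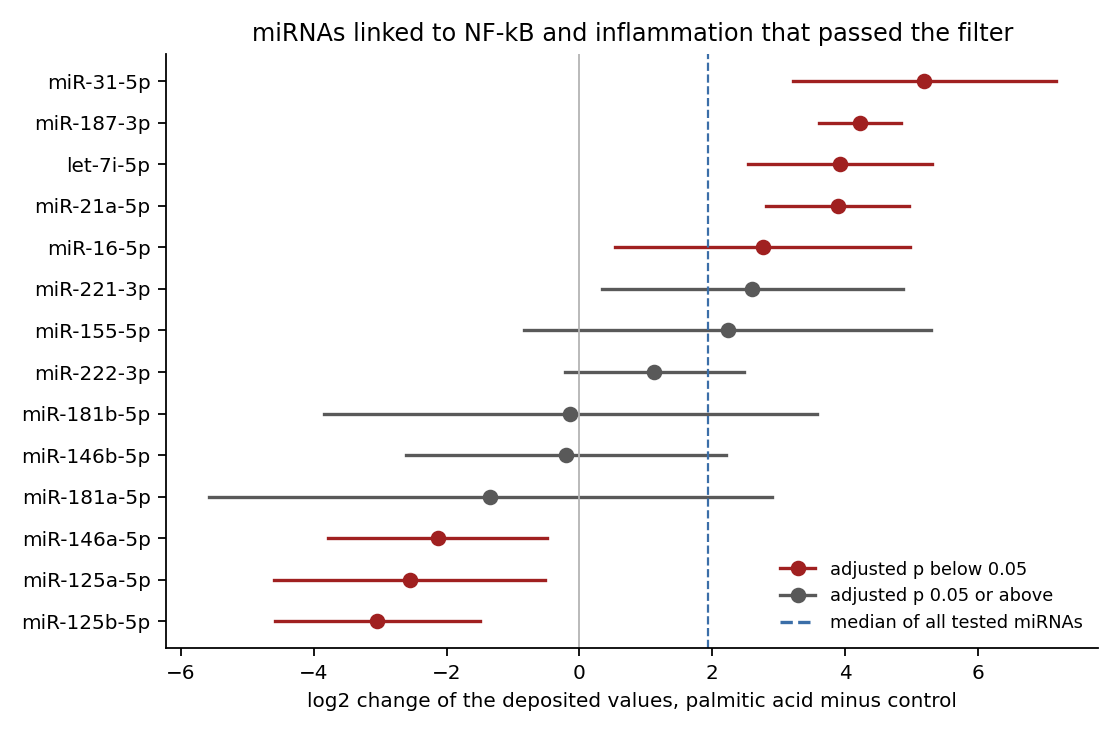
Log2 change of deposited values, palmitic acid minus control, with 95% limma intervals for the 14 miRNAs of the NF-kB and inflammation list that passed the filter. Red marks an adjusted p below 0.05 and the dashed line the median of all 181 tested miRNAs at 1.94. miR-146a-5p is among the 3 red points below 0, miR-146b-5p lies near 0, and miR-155-5p lies near the dashed line.

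The tested miRNAs whose profile over the 6 libraries was most like that of each member were found by the root mean square difference of mean-centred log2 values, a description in which all points share the same libraries. For miR-146a-5p they were miR-25-3p (0.68), miR-3473e (0.71) and miR-30f (0.75), against a median of 2.45 over all others. For miR-155-5p they were miR-340-5p (0.61), miR-484 (0.83) and miR-130a-3p (0.90), against 2.23. miR-340-5p stood at 7.66, 3.25 and 2.95 in controls (deposited log2) against 8.06, 7.38 and 6.22, and so shared the high control replicate 1 of miR-155-5p. For miR-146b-5p they were miR-203b-5p (0.56), miR-328-3p (0.64) and miR-455-3p (0.68), against 2.03.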

How the data were processed

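Small RNA libraries were made from Trizol-extracted vesicle RNA with a NEBNext Multiplex small RNA kit, per the labels' protocols. Named per the submitters' processing notes, with no version or role, are bedtools, Bowtie2 and the builds mm10 and GRCm38. How reads were counted, and on which miRNA annotation, is not given in the sources used here.

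As deposited by the authors, the data are 1 table of 1976 mature miRNAs in 6 libraries. It is named as raw counts, but its deposited values are log2(adjusted count + 1). The values fit quantiles of negative binomial counts moved to equal library sizes, with 1 dispersion (1.39), 1 mean for each miRNA and library factors of 0.32 to 0.46 in controls against 1.68 to 2.86 with palmitic acid. No label states this step. 108 rows hold small control values without any recovered read, so libraries not analysed here may have entered it. Inverting this step gave reads: among 5827 values, 99.98% were whole within 0.0015 (log2), with at least 0.02 between successive read numbers. In a simulation of 1058 rows 99.984% of values were recovered within 0.2%. High read numbers and library totals are approximate.

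A group term was fitted with limma 3.58.1 under R 4.3.3, using its mean-variance trend, to the 181 miRNAs whose adjusted count reached 10 in 3 or more libraries, two-sided, with Benjamini-Hochberg adjustment at 0.05. On data simulated for this comparison (181 miRNAs) 9.83%, 49.3% and 87.7% of changes of 1, 2 and 4 (log2) were found, and 3.19% of those called had not been changed. Single values were compared by exact two-sided permutation tests (scipy 1.17.1), which cannot go below 0.1. Intervals are 95% Clopper-Pearson, and 0 reads were read as up to 3. Alternatives were other filters, pseudocounts and scalings, no trend, a replicate block, voom on recovered reads and leaving out each library. Beside the members, their opposite arms, the most abundant tested members of the lists and the 3 most similar miRNAs were named. The members and lists were chosen with earlier results of these data known.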

Additional observations from a re-analysis of the deposited data

How the results depend on the processing

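Without control replicate 1, 2 or 3 or palmitic acid replicate 1, 2 or 3 in turn, miRNAs called higher numbered 28 to 86 and lower 18 to 29, the log2 change of miR-146a-5p ran from -2.87 to -1.75, that of miR-155-5p from 1.03 to 3.76 and that of miR-146b-5p from -1.21 to 0.56. The counts fell to 28, 32 and 33 higher without palmitic acid replicates 1, 2 and 3, where fewer miRNAs passed the filter (142 in the last). Lower calls numbered 60 with no filter, 40 with centring, 8 with library totals, 41 with totals without miR-122 and 9 with voom on recovered reads and totals (added after seeing the data), against 26. The miR-146a-5p call was lost with no filter (-2.13, adjusted p = 0.097), library totals (-1.17) and voom with totals (-0.95, adjusted p = 0.443). miR-146b-5p turned to 0.78 with library totals, 0.15 with voom and totals, and 0.56 and 0.02 without control replicates 1 and 2. In RPM the mean difference of miR-146b-5p turned from -25.1 to 44.2 without control replicate 1. That of miR-155-5p turned from 43.9 to -78.1 against reads other than miR-122, and that of miR-150-5p from -7.97 to 1.27 without control replicate 3. That of miR-142a-3p turned from 1.02 to -18.1 against reads other than miR-122, to -1.62 without control replicate 1 or 2 and to -0.72 without palmitic acid replicate 3. All control reads of miR-142a-3p (4) and miR-150-5p (7) were in control replicate 3. miR-146b-5p stood at 220 RPM in control replicate 1 against 16.7 and 7.92 in the other controls. Why the libraries differed in this way was not tested. Over leave-one-out fits the RPM differences ran from -634 to -33.3 for miR-146a-5p, from -62.0 to 44.2 for miR-146b-5p, from 0.63 to 103 for miR-155-5p, from -1.62 to 6.30 for miR-142a-3p and from -12.6 to 1.27 for miR-150-5p. Both read ratios kept their direction without each library in turn (-14.3 to -7.14 and 0.34 to 0.70).

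With the replicate block, 83 of 181 were higher and 28 lower. miR-146a-5p stood at -2.13 (limma adjusted p = 0.0197), miR-155-5p at 2.23 (0.0894) and miR-146b-5p at -0.21 (0.889), so no member's call changed. Deviations of same-numbered libraries correlated at 0.21, 0.15 and 0.04, and control replicate 3 correlated best with another number, whereas replicates 1 and 2 correlated best with their own. The labels do not say whether same-numbered libraries share an animal or day, so the pairing is unknown and was not used. The ratio of the miR-142a arms was not run, as both had a read in 1 library only. With 3 libraries a group and 0 to 17 control reads, changes of miR-155-5p and the immune-cell miRNAs are poorly bounded.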
